A study of Homo sapiens with 12 samples.

Results

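Fucosyltransferases transfer fucose from GDP-fucose to the sugar chains of glycoproteins and glycolipids. The 9 genes described here, FUT1 to FUT9, are the members of this family that the count table lists under those symbols, and they are 9 of its 26641 genes. They were followed in all 12 RNA-seq libraries, with recruitment compared to control within each dCas9 fusion. The family was chosen because of the rise of FUT7 on dCas9-VPR recruitment, so the values of that contrast are given as a description with standard errors. The number of members called in that contrast carries no weight.

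The libraries came from NCCIT, a human embryonal carcinoma line that serves as a model of early embryonic cells. Each of 6 lines carried a doxycycline-inducible Streptococcus pyogenes dCas9 fusion and 1 array of guide RNA units, and all 6 were given doxycycline for 4 days. The fusion was dCas9-VPR, a transcriptional activator (CRISPRa), or dCas9-KRAB, a repressor (CRISPRi). The array was LTR5HS Sp (12 guides to LTR5HS, the long terminal repeat of the HERVK endogenous retrovirus, on the S. pyogenes scaffold, the recruitment arm), LTR5HS Sa (the same target on the Staphylococcus aureus scaffold, which that dCas9 does not use) or nontarget Sp (guides with no genomic target). The last 2 arrays were the controls, so each fusion had 2 recruitment and 4 control libraries. Every combination of fusion and array was 1 drug-selected line with 2 biological replicates, so the array and the line that carries it cannot be told apart.

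The family is grouped by the bond it makes. FUT1 and FUT2 make the H antigen, the precursor of the ABO blood groups, and FUT2 sets the secretor status of epithelia. FUT3, FUT5 and FUT6 are closely related genes on chromosome 19 that make Lewis antigens; FUT4 and FUT9 make Lewis x (CD15). FUT7 adds the last fucose of sialyl Lewis x, the ligand by which leukocytes roll on selectins, and is known from leukocytes. FUT8 adds the core fucose of N-glycans and is expressed in most tissues.

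The guides of the LTR5HS Sp array are the sequences by which dCas9 is directed, and 4 of the 12 have a match with at most 1 mismatch within 250 kb of the FUT7 start. Each guide has 16 bases and needs an NGG motif at its 3′ end. They are shown 5′ to 3′ so that the genomic matches can be read against them.

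LTR5HS-4: agcccgacacccgtaa

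LTR5HS-8: taaagggtctgtgctg

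LTR5HS-10: atagagaaagaaaagt

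LTR5HS-11: gaaacgcccacaggtg

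Searched against hg38, the 12 guides had 2938 exact matches with NGG, which fell into 950 clusters when matches less than 1000 bases apart were joined. Of those clusters, 648 were matched by at least 2 guides. FUT7 (ENSG00000180549.8) lies on the minus strand at chr9:137030174-137032088. Its nearest cluster with at least 2 exactly matching guides was 2939 kb away, and its nearest exact match of any guide was LTR5HS-8, 84.6 kb upstream of the FUT7 start, on the plus strand at chr9:137116671-137116689. This match lay within DPP7, outside annotated exons, 1.94 kb upstream of the start of the canonical DPP7 transcript. The matches of LTR5HS-4 (substitution G13A) and LTR5HS-11 (substitution G6A) lay beside it. Substitutions give the guide base, its position counted from 1 at the 5′ end of the guide, and the genomic base. The 3 genomic sites with their NGG are shown with the mismatched base in capitals.

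DPP7 site of LTR5HS-4: agcccgacacccAtaaagg

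DPP7 site of LTR5HS-8: taaagggtctgtgctgagg

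DPP7 site of LTR5HS-11: gaaacAcccacaggtgtgg

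On the other side of FUT7, a second group lay within CCDC183, with an exact match of LTR5HS-8 at 235.1 kb and 1-mismatch matches of LTR5HS-4 (C12A) and LTR5HS-10 (A13C). Another exact match of LTR5HS-8 lay at 242.7 kb. Within 250 kb of the FUT7 start there were 3 exact matches, 7 with at most 1 mismatch and 21 with at most 3, and the nearest of any of these was 15.4 kb from the start.

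FUT1 and FUT2, neighbors on chromosome 19, shared an exact cluster of 4 guides at chr19:48890041-48890452, which lay 137.6 kb from the FUT1 start and 194.3 kb from the FUT2 start. Each had 2 clusters with at least 2 exactly matching guides within 250 kb of its start, where FUT7 had 0. Within that distance each had 7 exact matches, 11 with at most 1 mismatch and 22 with at most 3, all more than FUT7. For the other members the nearest exact cluster was farther, at 433.7 kb for FUT8, 455.0 kb for FUT9, 2043 kb for FUT4 and between 2445 and 2476 kb for FUT3, FUT5 and FUT6. FUT6 was the one member with a match within 5000 bases of its start, a 3-mismatch match of LTR5HS-10 at 2.09 kb. None of the 11 RefSeq promoters of the members (GRCh38.p14, 250 bases before to 50 after the start) held a match with up to 3 mismatches, against 0.253% of all 35116 promoters. The matches are sequence matches and do not show where dCas9 was bound.

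**Figure D1:**
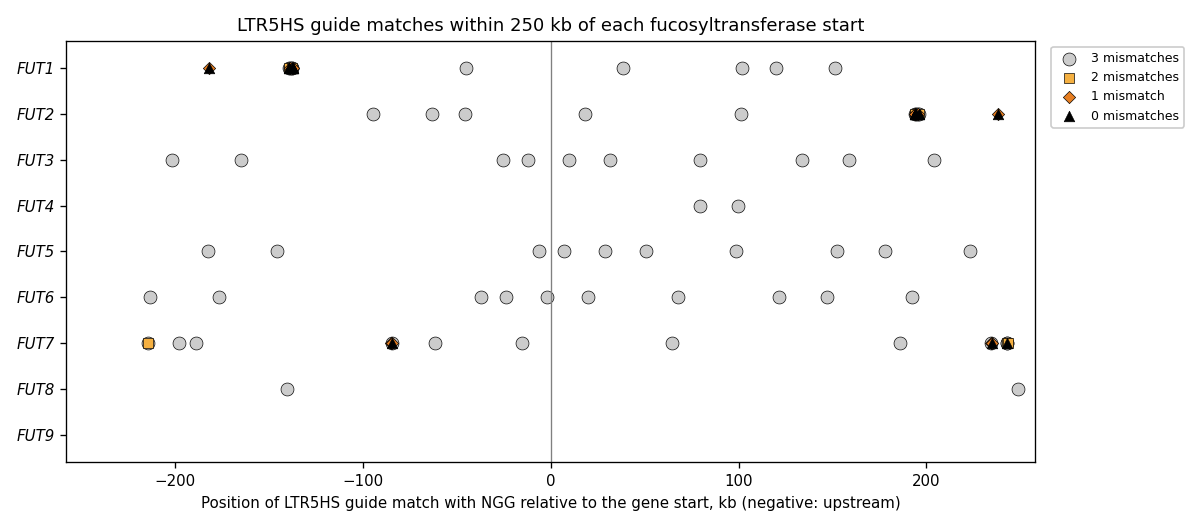
Matches of the 12 LTR5HS guides with NGG (markers, by number of mismatches) are plotted by distance in kb from the start of each fucosyltransferase gene. Exact matches (black triangles) appear for FUT1, FUT2 and FUT7 only, and the ones nearest to FUT7 lie 84.6 kb upstream.

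The FUT7 promoter is shown because FUT7 is the member that moved most. The 250 bases before the RefSeq start, on the minus strand of GRCh38.p14 at chr9:137032089-137032338, carry in capitals a GC box (GGGCGG, position -80) and a GATA motif (AGATAA, position -31). These motifs were chosen after the sequence was seen and were searched on both strands. GGGCGG was in 45.0% and AGATAA in 10.3% of all promoters, and the promoters of the members held them in 7 and 2 of 11.

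FUT7 promoter: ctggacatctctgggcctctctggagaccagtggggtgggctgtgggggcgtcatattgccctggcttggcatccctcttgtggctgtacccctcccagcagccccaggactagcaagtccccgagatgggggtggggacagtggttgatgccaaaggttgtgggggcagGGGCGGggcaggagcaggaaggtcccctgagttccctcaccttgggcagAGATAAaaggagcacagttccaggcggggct

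The libraries held between 13601701 and 69797411 assigned counts, with a median of 18256928. The deepest was dCas9-KRAB nontarget Sp replicate 2, and the next held 24840708. Levels are given as CPM, counts scaled to the library total after TMM normalization over the 12 libraries, and 3 counts, taken as the floor, corresponded to between 0.0455 and 0.233 CPM. Of 6 genes taken from earlier results of these data as responding to both fusions, 6 were higher with CRISPRa recruitment and 6 lower with CRISPRi recruitment (medians 3.28 and -2.02, log2), which checks the labels of the arms and is no independent evidence. The 8 pluripotent cell markers were all detected, although they summed to between 1015 and 1595 CPM in the dCas9-VPR controls and to between 4881 and 6139 CPM in the dCas9-KRAB controls.

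FUT7 RNA was close to absent in 10 libraries and abundant in the 2 with dCas9-VPR recruitment. The recruitment libraries held 3146 and 5370 FUT7 counts, or 175.1 and 287.0 CPM. The dCas9-VPR controls held 16 and 3 counts with LTR5HS Sa and 2 and 0 counts with nontarget Sp. In the dCas9-KRAB lines the counts were 3 and 0 with LTR5HS Sp, 2 and 3 with LTR5HS Sa and 1 and 6 with nontarget Sp. Recruitment and control did not overlap with dCas9-VPR, and the 2 recruitment libraries differed from each other by 1.64-fold.

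FUT7 averaged 231.1 ± 79.1 CPM over the dCas9-VPR recruitment libraries (SD, n = 2), whereas the mean of the dCas9-VPR controls was 0.241 ± 0.321 CPM (SD, n = 4). The fitted log2 fold change was 9.78 (SE 0.50), which ranked 1 of the 16271 genes tested, and the gene ranked after it reached 9.05. Pooled over libraries, the 8516 recruitment counts against 21 control counts gave an 895-fold difference (95% exact binomial interval 585 to 1447, counting error only). Most of the control counts came from 1 library, LTR5HS Sa replicate 1, whose 0.714 CPM was 0.309% of the recruitment mean. Without it the log2 fold change was 11.30, and with nontarget Sp alone as control, which rests on 2 counts, the fold was 4459 (interval 1234 to 36822). FUT7 and FUT6 passed the filter on low counts only through their recruitment libraries, so they had to differ in this contrast.

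FUT7 reads cannot be assigned to FUT7 with full certainty, because 2 annotated genes overlap it and the strand setting of the counting was not given. ENSG00000279073, on the same strand and not analysed here, shared 569 exonic bases with FUT7, which strand could not resolve. A non-coding gene on the other strand, listed as C9orf139 (LINC02908 in GENCODE), shared 91. The overlaps given for members are between GENCODE v44 exons. The deposited length of FUT7, 2414 bases, is longer than its whole GENCODE span, as is that of FUT4, 6048 bases. The counted gene models thus differed from those of GENCODE v44, and the overlaps within the counts are not known. C9orf139 was at 1.34 and 2.35 CPM with recruitment and between 0.0497 and 0.268 CPM in the dCas9-VPR controls, so the counts assigned to it were far fewer than those assigned to FUT7.

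**Figure D2:**
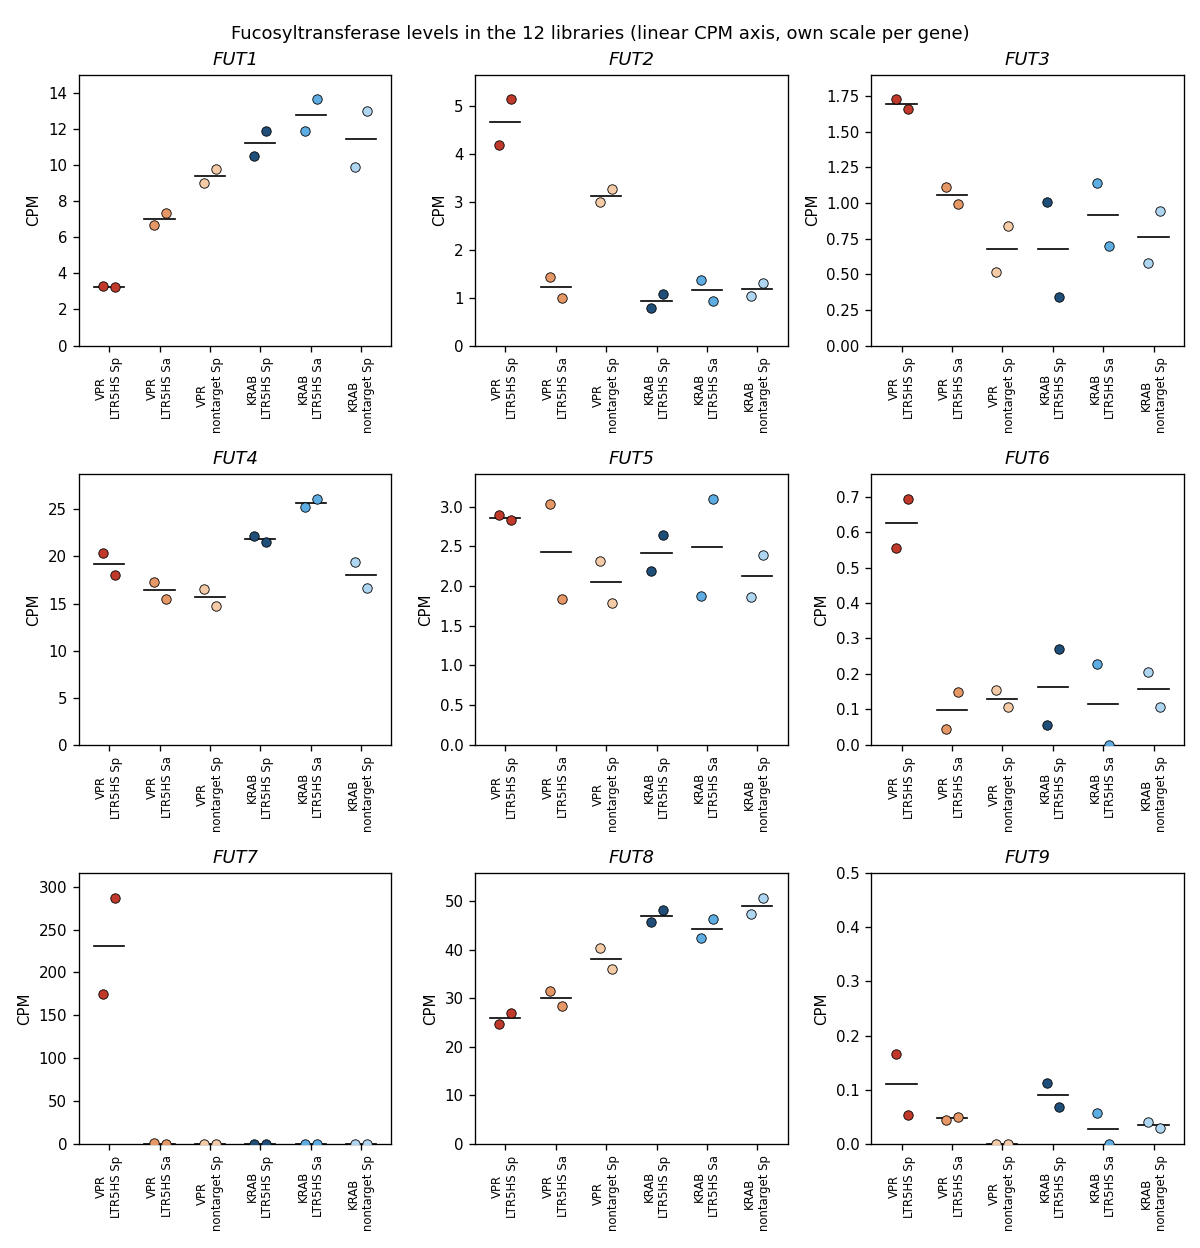
CPM of each fucosyltransferase in the 12 libraries (points, 2 replicates per line; horizontal bars, means of the 2) on linear axes that start at 0 and differ between genes. FUT7 stands at 175.1 and 287.0 CPM in the dCas9-VPR LTR5HS Sp line and below 1 CPM elsewhere, while FUT1 is lowest and FUT2 highest in that line.

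Of the 8 members tested with CRISPRa, 3 were called at an adjusted p of 0.05 by edgeR's quasi-likelihood test, FUT7 and FUT6 higher and FUT1 lower, while 28.0% of all genes were called in this contrast. FUT9 was not tested, since no library held more than 3 of its counts. The contrast was used to choose the family, so nothing is read from this count.

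The H antigen genes differed in direction with CRISPRa. FUT1 was at 3.28 and 3.26 CPM with recruitment, at 6.69 and 7.35 CPM with LTR5HS Sa and at 9.03 and 9.78 CPM with nontarget Sp. The 2 recruitment libraries were the lowest of the 6, and the LTR5HS Sa libraries lay below the nontarget Sp libraries. The FUT1 log2 fold change was -1.32 (SE 0.23), or 2.51-fold lower means. In contrast, FUT2 was at 4.17 and 5.13 CPM with recruitment, at 1.43 and 0.993 CPM with LTR5HS Sa and at 2.99 and 3.26 CPM with nontarget Sp. Recruitment was the highest, but the 2 controls also stood apart, and the log2 fold change of 1.11 (SE 0.43) became 1.92 against LTR5HS Sa alone.

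Among the Lewis enzymes, FUT6 was low throughout but higher with recruitment, with 10 and 13 counts against 1 and 3 counts with LTR5HS Sa and 3 and 2 counts with nontarget Sp. The pooled counts gave a 5.64-fold difference (95% exact binomial interval 2.51 to 13.9, counting error only) and the fitted log2 fold change was 2.43 (SE 0.51). FUT6 passed the filter on low counts only through its recruitment libraries, so it had to differ and the interval gives no support. DESeq2's Wald test did not call it. FUT3 was at 1.73 and 1.66 CPM with recruitment and between 0.516 and 1.12 CPM in control, with a log2 fold change of 0.95 (SE 0.34). FUT4 was at 20.4 and 18.1 CPM against 14.8 to 17.3 CPM (log2 fold change 0.26, SE 0.14), and FUT5 at 2.89 and 2.83 CPM against 1.79 to 3.03 CPM (0.35, SE 0.28). The groups did not overlap for FUT3, FUT4 and FUT6, and they overlapped for FUT5. FUT3, FUT5 and FUT6 are near-identical in sequence over long stretches, so the division of their reads is uncertain, and the exons of FUT3 and FUT5 share 126 and 1643 bases with genes not analysed here. FUT4 shares 602 exonic bases with PIWIL4 and 652 with PIWIL4-AS1.

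FUT8, the core fucosyltransferase, was at 24.8 and 26.9 CPM with recruitment, at 31.6 and 28.4 CPM with LTR5HS Sa and at 40.2 and 36.0 CPM with nontarget Sp. Recruitment was below every control library, and the log2 fold change was -0.39 (SE 0.16). As for FUT1, the LTR5HS Sa libraries lay between recruitment and nontarget Sp. FUT8 shares 824 exonic bases with FUT8-AS1 on the other strand, whose reads cannot be told apart if strand was not used.

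**Figure D3:**
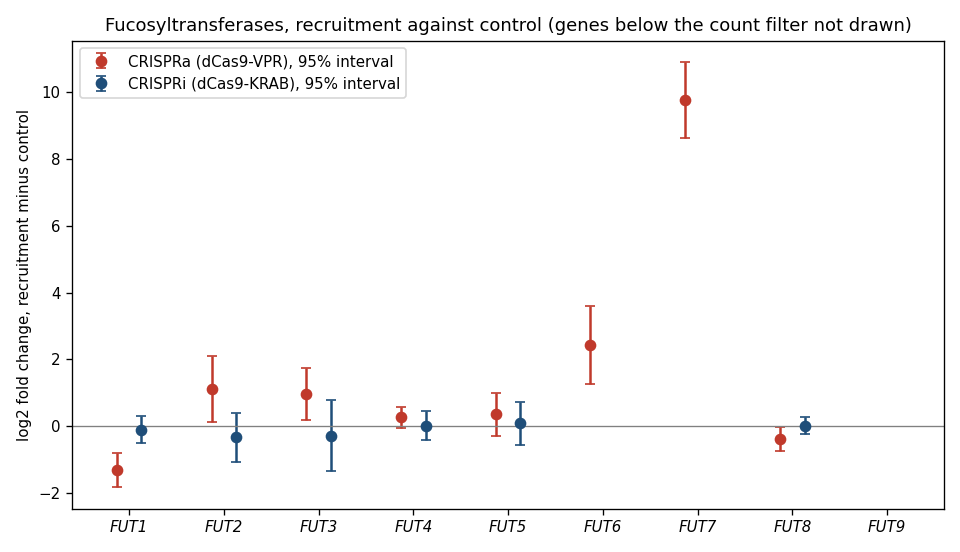
log2 fold change of recruitment against control (points) with 95% intervals of the edgeR fit (bars), for CRISPRa in red and CRISPRi in blue; members below the count filter are not drawn. FUT7 stands at 9.78 with CRISPRa, and the 6 members tested with CRISPRi lie within 0.34 of 0.

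Per length, CRISPRa recruitment changed which member was the most abundant. Levels between genes are compared as CPM per kb of the deposited gene length. In the dCas9-VPR controls the order of mean levels was FUT8 (6.02 ± 0.92, SD, n = 4), FUT4 (2.65 ± 0.19), FUT1 (1.93 ± 0.34), FUT5 (1.13 ± 0.29), FUT2 (0.700 ± 0.363) and FUT3 (0.334 ± 0.100), with FUT7, FUT6 and FUT9 at or below 0.100. The libraries of FUT5 and FUT2 overlapped, as did those of FUT2 and FUT3 and those of FUT3 and FUT7. With recruitment FUT7 came first at 95.7 ± 32.8 CPM per kb (SD, n = 2), followed by FUT8 at 4.57 ± 0.26 and FUT4 at 3.18 ± 0.27. FUT2 (1.50 ± 0.22) and FUT5 (1.44 ± 0.02) overlapped and came next, above FUT1 (0.771 ± 0.004) and FUT3 (0.653 ± 0.019). FUT7 made up 85.6% and 90.5% of the summed per-length level of the 9 members in the 2 recruitment libraries and at most 2.32% in any other library. Without FUT7 the sum stayed between 11.0 and 17.9 CPM per kb over the 12 libraries.

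With CRISPRi, 0 of the 6 members tested were called by edgeR, against 2.77% of all genes tested, and 0 by DESeq2's Wald test; no member had an unadjusted p under 0.05. FUT6, FUT7 and FUT9 did not pass the filter on low counts, so a fall of these genes was not detectable at this depth. FUT8, the most abundant member, was at 45.6 and 48.1 CPM with recruitment and between 42.4 and 50.7 CPM in control, and its log2 fold change was 0.0071 (95% interval -0.25 to 0.26). FUT1 was at 10.5 and 11.9 CPM against 9.91 to 13.7 CPM, with a log2 fold change of -0.11 (95% interval -0.51 to 0.30). FUT4 was at 22.1 and 21.5 CPM against 16.6 to 26.2 CPM, with a log2 fold change of 0.0093 (95% interval -0.43 to 0.45). FUT2, FUT3 and FUT5 were less abundant and had wider intervals, from -1.08 to 0.40, from -1.36 to 0.78 and from -0.56 to 0.71. In all 6, the recruitment libraries overlapped with the controls, and adjusted p-values were 0.704 or above in edgeR's test.

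The 2 control arrays differed for 1 member with dCas9-VPR. FUT2 was lower with LTR5HS Sa (1.43 and 0.993 CPM) than with nontarget Sp (2.99 and 3.26 CPM), with a log2 difference of -1.34 (SE 0.29, edgeR adjusted p = 0.0354). It was the 1 member called of 8 tested, where 4.51% of all genes were called, 2.61% lower. The call was lost when any 1 of these 4 control libraries was left out, with adjusted p-values up to 0.240. FUT1 (-0.40, adjusted p = 0.282) and FUT8 (-0.33, adjusted p = 0.248) were also lower with LTR5HS Sa in both libraries but were not called by edgeR, and FUT7, at 16 and 3 against 2 and 0 counts, had an adjusted p of 0.278.

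With dCas9-KRAB, 0 of 6 members were called between the control arrays by edgeR and by DESeq2's Wald test, against 0.567% of all genes, and 1 member, FUT4, had an unadjusted p under 0.05. FUT4 was at 25.3 and 26.2 CPM with LTR5HS Sa and at 19.4 and 16.6 CPM with nontarget Sp, with a log2 difference of 0.52 (SE 0.16, edgeR adjusted p = 0.278). FUT2 did not separate the arrays in this fusion (1.36 and 0.931 against 1.03 and 1.30 CPM). The array difference was compared between fusions in a test added after the data were seen, and 0 of 6 members were called by edgeR, against 1.79% of all genes, with FUT2 at -1.29 (SE 0.46, adjusted p = 0.226) as the 1 member at an unadjusted p under 0.05.

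The fusions differed in the level of 4 of the 6 members tested in control libraries, 3 lower and 1 higher with dCas9-VPR, where 57.5% of all genes were called, 29.3% lower and 28.1% higher. FUT8 was lower with dCas9-VPR (28.4 to 40.2 CPM) than with dCas9-KRAB (42.4 to 50.7 CPM), and the libraries did not overlap; the log2 difference was -0.45 (SE 0.09, edgeR adjusted p = 0.00180). FUT1 was lower as well, at 6.69 to 9.78 against 9.91 to 13.7 CPM, again without overlap (-0.56, SE 0.16, edgeR adjusted p = 0.0115). FUT4 was lower (-0.41, SE 0.13, edgeR adjusted p = 0.0160) and FUT2 higher (0.84, SE 0.30, edgeR adjusted p = 0.0335), and for both genes the libraries of the 2 fusions overlapped. FUT3 (-0.019) and FUT5 (-0.031) were not called, with adjusted p-values of 0.962 and 0.923 in edgeR's test.

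Single libraries decided 3 of these 4 calls. FUT1 was not called without dCas9-VPR LTR5HS Sa replicate 1, FUT4 not without either dCas9-VPR LTR5HS Sa replicate (0.0564 and 0.0756), and FUT2 not without either nontarget Sp replicate of either fusion or without dCas9-KRAB LTR5HS Sa replicate 2 (up to 0.119). All 8 pluripotent cell markers were called lower with dCas9-VPR in the same test, against 29.3% of all genes. Their median log2 difference was -2.37 against -0.012 over all genes. Of 9 tested differentiation markers, 6 were called higher, against 28.1% of all genes. The part of these markers in the difference of the fucosyltransferases was not tested, and in bulk RNA fewer cells of a kind cannot be told apart from less RNA per cell. In the dCas9-KRAB controls the per-length order was FUT8 (8.25 ± 0.60 CPM per kb, SD, n = 4), FUT4 (3.62 ± 0.76), FUT1 (2.85 ± 0.39), FUT5 (1.16 ± 0.29), FUT2 (0.374 ± 0.068) and FUT3 (0.324 ± 0.096), and the libraries of FUT4 and FUT1 and of FUT2 and FUT3 overlapped.

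Within 250 kb of the FUT7 start, 46 of the 62 other annotated genes were found in the count table, 6 of them under an older symbol. With CRISPRa 12 of the 40 tested were called by edgeR, 10 higher and 2 lower. That is 25% and 5% of those tested, against 15.7% and 12.3% of all genes, and 30% against 28.0% in either direction. With CRISPRi 0 of 34 were called by edgeR, against 2.77% of all genes, and 0 by DESeq2's Wald test. Of the 34, 2 had an unadjusted p under 0.05. Apart from FUT7 itself, the change of greatest size among the 40 was 3.38, for C9orf139.

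The genes nearest to FUT7 upstream were NPDC1, ENTPD2 and SAPCD2, with starts at 14.1, 22.0 and 38.5 kb. NPDC1, a regulator of neural proliferation, was at 47.9 and 54.9 CPM with recruitment and between 19.3 and 33.3 CPM in control (log2 fold change 0.99, SE 0.23, edgeR adjusted p = 0.0149), a call that was lost without recruitment replicate 1 or 2 (adjusted p = 0.0567 and 0.116). Its controls also stood apart, with 30.6 and 33.3 CPM in LTR5HS Sa and 19.3 and 20.5 CPM in nontarget Sp (0.70, SE 0.14, edgeR adjusted p = 0.0260). NPDC1 was the 1 neighbor of 40 called between these arrays, where 4.51% of all genes were called. ENTPD2, an ectonucleotidase, changed by 0.11 (SE 0.47) and SAPCD2 by 0.0059 (SE 0.27), and neither was called. On the downstream side, ABCA2, a lipid transporter that starts 3.85 kb away, was at 71.4 and 106.8 CPM against 43.5 to 65.0 CPM in control. Its log2 fold change of 0.61 (SE 0.21) had an edgeR adjusted p of 0.0614, and of 0.0318 with the replicate number as a block. C9orf139 followed at 4.62 kb with 3.38 (SE 0.48). It held 24 and 44 counts with recruitment and at most 6 in any control, so it passed the filter on low counts only through its recruitment libraries, had to differ, and gives no support as 1 of the 12 called. CLIC3, an intracellular chloride channel, lay at 35.5 kb with -1.24 (SE 0.59, edgeR adjusted p = 0.156).

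DPP7, a lysosomal dipeptidase whose gene holds the nearest exact match, was at 11.4 and 16.2 CPM with recruitment and between 3.04 and 5.11 CPM in control (log2 fold change 1.61, SE 0.25, edgeR adjusted p = 0.00222). CCDC183, where an exact match lies 0.610 kb from the gene start, changed by 1.31 (SE 0.26, edgeR adjusted p = 0.00712), CCDC183-AS1 by 1.21 (SE 0.27, edgeR adjusted p = 0.0110) and TMEM141 by 0.87 (SE 0.13, edgeR adjusted p = 0.00195). CCDC183 and CCDC183-AS1 are antisense partners, whose reads cannot be told apart if strand was not used. The last 3 genes were named after their values were seen, so the 4 genes are no evidence on genes beside matches, and 28 of the 40 neighbors tested were not called. Without recruitment replicate 2, CCDC183 (adjusted p = 0.0792) and CCDC183-AS1 (0.0995) were not called. With CRISPRi the same genes had log2 fold changes of 0.64 (DPP7), -0.14 (CCDC183), 0.11 (CCDC183-AS1) and -0.43 (TMEM141), with edgeR adjusted p-values of 0.197 or above.

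Other neighbors called with CRISPRa included RNF208 (1.38, SE 0.25, edgeR adjusted p = 0.00464), PTGDS, a prostaglandin D synthase (-1.29, SE 0.30, edgeR adjusted p = 0.0151), and UAP1L1 (-0.51, SE 0.12, edgeR adjusted p = 0.0160). The count of 12 became 7 without recruitment replicate 1 and 4 without recruitment replicate 2. RNF208 was not called without replicate 2, PTGDS not without replicate 1, and UAP1L1 not without either.

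**Figure D4:**
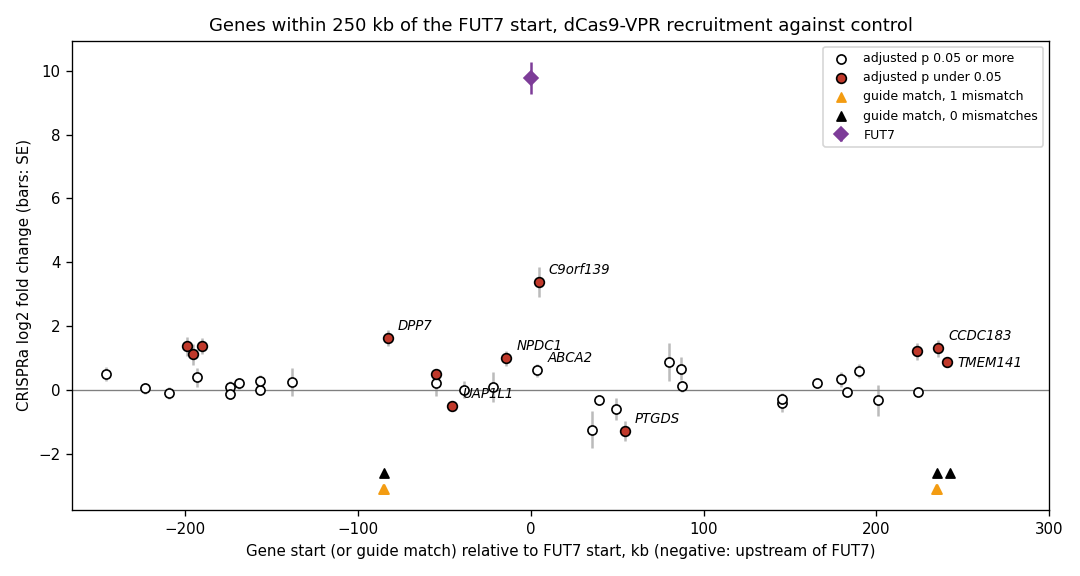
CRISPRa log2 fold change (points; bars, SE) of genes with a start within 250 kb of the FUT7 start, by distance in kb, with guide matches of 0 and 1 mismatch as triangles at the bottom. FUT7 stands at 9.78, and filled points mark the 12 of 40 neighbors called by edgeR, among them DPP7 at 1.61 beside the matches 84.6 kb upstream.

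Of the 6 genes that supply GDP-fucose and carry it into the Golgi, 0 were called with CRISPRa by edgeR, against 28.0% of all genes. DESeq2's Wald test called 0 of the 6, and 0 had an unadjusted p under 0.05. The median log2 fold change of the 6 was -0.0094 against -0.019 over all genes. GMDS, the first enzyme of the de novo route, was at 66.6 and 67.1 CPM with recruitment and between 67.5 and 80.2 CPM in control. SLC35C1, the GDP-fucose transporter of the Golgi, was at 44.1 and 44.9 CPM against 38.4 to 49.4 CPM.

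TSTA3, which catalyzes the second step of the de novo route, was the member of this group that changed with CRISPRi. It was at 13.5 and 22.0 CPM with dCas9-KRAB recruitment and between 1.98 and 3.80 CPM in the dCas9-KRAB controls, with a log2 fold change of 2.66 (SE 0.27, edgeR adjusted p = 0.000483). The same gene was at 15.4 and 26.4 CPM with dCas9-VPR nontarget Sp but at 3.12 and 4.02 CPM with dCas9-VPR LTR5HS Sa, and at 3.62 and 4.81 CPM with dCas9-VPR recruitment. Between the dCas9-VPR control arrays it differed by -2.53 (SE 0.30, edgeR adjusted p = 0.00339), LTR5HS Sa minus nontarget Sp. High TSTA3 thus marked 2 of the 6 lines, 1 recruitment line and 1 control line. Of the 5 GDP-fucose genes tested with CRISPRi, the other 4 were not called, and the median log2 fold change was 0.35 against 0.00060 over all genes.

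**Figure D5:**
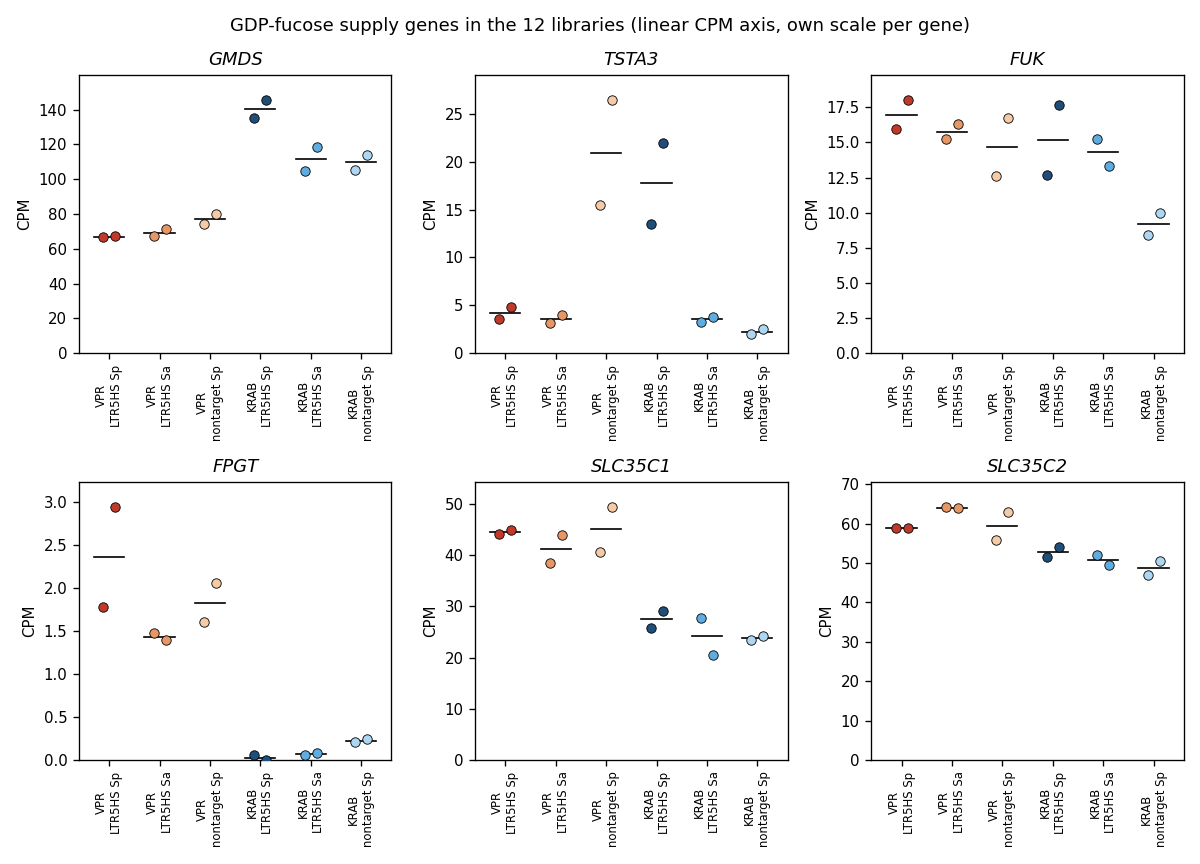
CPM of the 6 GDP-fucose supply genes in the 12 libraries (points, 2 replicates per line; horizontal bars, means of the 2) on linear axes that start at 0. TSTA3 is above 13 CPM in the dCas9-VPR nontarget Sp and dCas9-KRAB LTR5HS Sp lines and below 5 CPM in the other 4.

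Of the 4 fucosyltransferases outside the FUT1 to FUT9 set, 3 were called with CRISPRa, where 28.0% of all genes were called. FUT10 was at 7.68 and 8.23 CPM with recruitment and between 13.9 and 17.6 CPM in control (-0.97, SE 0.16, edgeR adjusted p = 0.00310). POFUT1, which fucosylates Notch, fell by 0.30 on the log2 scale (SE 0.09, edgeR adjusted p = 0.0484), and POFUT2, which fucosylates thrombospondin repeats, changed by 0.46 (SE 0.11, edgeR adjusted p = 0.0152). Of the 2 fucosidases, which remove fucose, FUCA2 fell by 0.43 on the log2 scale (SE 0.11, edgeR adjusted p = 0.0181). With CRISPRi 0 of these 6 genes were called by edgeR, against 2.77% of all genes, and 0 by DESeq2's Wald test. Of the 6, 0 had an unadjusted p under 0.05.

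Sialyl Lewis x needs a sialylated lactosamine chain. A list of 18 enzymes that build or modify acceptor chains was examined, and 16 were tested with CRISPRa. The list is broader than the sialyl Lewis x route and also holds ABO, CHST2, CHST4 and B3GALT genes, B3GALT5 among them. None was called higher and 3 (18.8%) were called lower, against 12.3% of all genes called lower, with a median log2 fold change of -0.27 against -0.019 over all genes. They were B3GNT3 (-1.84, SE 0.53, edgeR adjusted p = 0.0342), which extends core structures and passed the filter on low counts only through its controls, B3GALT5 (-0.99, SE 0.28, edgeR adjusted p = 0.0292), a galactosyltransferase, and ST3GAL4 (-0.54, SE 0.13, edgeR adjusted p = 0.0166), a sialyltransferase of the sialyl Lewis x route. B3GNT3 therefore had to differ in this contrast and gives no support as 1 of the 3, so nothing is read from that share. ST3GAL4 was at 15.4 and 15.7 CPM with recruitment and between 21.1 and 23.6 CPM in control. With CRISPRi 0 of 16 were called by edgeR, against 2.77% of all genes, and 0 by DESeq2's Wald test. Of the 16, 3 had an unadjusted p under 0.05, and the median was 0.20.

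Of 9 selectins and carriers of their ligands, 6 were tested with CRISPRa and 2 (33.3%) were called, against 28.0% of all genes. CD44 was at 9.69 and 6.20 CPM with recruitment and between 2.53 and 4.85 CPM in control (1.04, SE 0.30, edgeR adjusted p = 0.0341), whereas SPN, the leukocyte sialomucin CD43, was at 0.835 and 0.214 CPM against 1.73 to 2.63 CPM (-2.10, SE 0.48, edgeR adjusted p = 0.0131) and passed the filter on low counts only through its controls. SPN thus had to differ and gives no support as 1 of the 2 called. SELPLG, the P-selectin ligand, was at 2.06 and 1.39 CPM against 0.413 to 1.56 CPM and was not called (1.08, SE 0.51, edgeR adjusted p = 0.156). With CRISPRi 0 of 4 were called by edgeR, against 2.77% of all genes, and 0 by DESeq2's Wald test. Of the 4, 2 had an unadjusted p under 0.05.

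Among the list genes called with CRISPRa, CD79A, SPN and B3GNT3 passed the filter on low counts only through the group where they were high. They had to differ and give no support in the share that follows, so nothing is read from it. Many calls in these pathway and marker lists were lost when a recruitment library was left out. Over all lists, 19 of 58 genes tested (32.8%) were called with CRISPRa, against 28.0% of all genes, and 10 were called without recruitment replicate 1 and likewise 10 without replicate 2. FUCA2, B3GNT3, ST3GAL4, CD44, POFUT1 and POFUT2 were not called without either, B3GALT5 and SPN not without replicate 2, and FUT10 was called in both cases. B3GNT3 was also not called without nontarget Sp replicate 1, B3GALT5 not without LTR5HS Sa replicate 1 and CD44 not without nontarget Sp replicate 2. POFUT1 was called in 1 of the 6 fits that left out 1 library each, the one without nontarget Sp replicate 1.

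As FUT7 is known from leukocytes, 14 leukocyte markers were examined in the same libraries. Their summed level was between 22.3 and 27.9 CPM with dCas9-VPR recruitment and between 15.9 and 19.7 CPM in the dCas9-VPR controls. The defining markers PTPRC (CD45), CD3E, CD2, MS4A1 and MPO held at most 3 counts in each of these 6 libraries. Of 7 markers tested, 2 (28.6%) were called higher and 1 (14.3%) lower, against 15.7% and 12.3% of all genes. LCK (1.20, SE 0.24, edgeR adjusted p = 0.00679) was higher and CORO1A lower (-1.57, SE 0.33, edgeR adjusted p = 0.00896). CD79A (2.74, SE 0.40) held 40 and 25 counts with recruitment and at most 7 in any control. It passed the filter on low counts only through its recruitment libraries, so it had to differ and gives no support as 1 of the 2 called higher. LCK was not called without recruitment replicate 2 and CORO1A not without replicate 1.

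Markers of the cell state also moved with CRISPRa recruitment. The 12 differentiation markers summed to between 101.8 and 113.9 CPM with recruitment and to between 34.7 and 43.6 CPM in control, and 4 of 9 tested (44.4%) were called higher, against 15.7% of all genes, and 0 lower by edgeR. The 3 called with the largest changes were CDX2 (3.72, SE 0.39, edgeR adjusted p = 0.000252), GATA2 (1.76, SE 0.15, edgeR adjusted p = 0.000103) and GATA3 (1.48, SE 0.29, edgeR adjusted p = 0.00617, not called without recruitment replicate 1). Other markers of the list had negative values that were not called, at -0.91 for PAX6 (SE 0.36, unadjusted p under 0.05), -1.08 for SOX1 (SE 0.80) and -1.19 for FOXA2 (SE 0.59). Of 8 pluripotent cell markers, L1TD1 was called higher (1.62) and SOX2 (-1.24) and DNMT3B (-0.62) lower, the last 2 not without recruitment replicate 1. Of the pluripotent cell markers, 12.5% were called higher and 25% lower, against 15.7% and 12.3% of all genes. In either direction it was 37.5% against 28.0%. The part of these marker changes in the values of the fucosyltransferases was not tested. With CRISPRi, GATA3 was called (1.47, SE 0.29, edgeR adjusted p = 0.0259), though not without recruitment replicate 1, recruitment replicate 2 or nontarget Sp replicate 2.

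The 5 genes whose log2 CPM followed FUT7 most closely over the 12 libraries were ADAM28, KRT16P1, MAGEA10-MAGEA5, SPHKAP and EVX1, with Pearson coefficients between 0.996 and 0.998 among 16648 genes. These coefficients describe 2 high and 10 low libraries rather than a graded relation. ADAM28, a metalloprotease of lymphocytes, was at 75.0 and 77.3 CPM with dCas9-VPR recruitment and at most 0.491 CPM elsewhere. EVX1, a homeobox factor of the primitive streak, was at 7.57 and 11.9 CPM and at most 0.0892 CPM elsewhere.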

How the data were processed

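Poly(A)-selected RNA of 12 NCCIT libraries was sequenced, in 6 groups of 2 biological replicates taken from the sample labels. The deposited values are raw read counts per gene. Per the labels and the methods of the study, the authors used CASAVA 1.8, cutadapt 1.8.1, HISAT2 2.1.0 on hg38 and featureCounts 1.4.6-p2, while the gene annotation and strand setting of the counting were not given in the sources used here. The deposited table also gives a gene length, another value written by the counting tool, which was used for levels per kb. Of 26641 genes, 3395 had no count in any library and 28 had names turned into dates.

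The counts were fitted over the whole table with edgeR 4.0.16 (R 4.3.3), by the quasi-likelihood test after filterByExpr and TMM scaling, with Benjamini-Hochberg adjustment and a threshold of 0.05. Recruitment was compared with both control arrays within each fusion, the control arrays with each other within each fusion, and the fusions in the 8 control libraries with the array as a covariate. A test of the array difference between fusions was added after the data were seen. DESeq2 1.42.0, its size factors, other filters, each control alone, 1 fit of all 12 libraries, a replicate block and leaving out each library were tried as alternatives. SE is the size of the log2 fold change divided by the square root of F. The 95% intervals of count ratios are exact binomial and, without molecular identifiers, cover counting error only. The fits were tested on simulated data with known changes.

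Replicate numbers come from the labels. The difference between the replicates of a line was correlated across genes with that of each of the other lines. The coefficients ran from 0.195 to 0.467 within a fusion and from 0.054 to 0.441 across fusions. These ranges overlap, so they do not show that the numbers pair libraries only within a fusion. Libraries were taken as paired within a fusion by choice. The main fits and their p-values left this pairing out, and it entered only through the replicate block among the alternatives.

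Guides were matched to hg38 with an NGG motif and up to 3 mismatches, from designed sequences in the study's supplement. Gene positions are from GENCODE v44, and promoters from RefSeq. Named were the 9 members, up to 3 genes per list and direction with the largest change among those called with CRISPRa or CRISPRi, the 3 genes nearest to FUT7 on either side and the 5 genes that correlated best with FUT7 (Pearson, log2 of CPM plus 0.5). The 6 genes that check the labels are given by count and median. Genes named outside this rule were chosen after their values were seen. The members and lists were chosen with earlier results of these data known.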

Additional observations from a re-analysis of the deposited data

Results flagged for a closer look

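TSTA3, the GDP-fucose synthase, was flagged because its difference between the control arrays was not the same in both fusions. The difference LTR5HS Sa minus nontarget Sp was -2.53 on the log2 scale with dCas9-VPR (SE 0.30, edgeR adjusted p = 0.00339) and 0.63 with dCas9-KRAB (SE 0.29, edgeR adjusted p = 0.516). The difference between the fusions was -3.14 (SE 0.42, edgeR adjusted p = 0.00609), in a test added after the data were seen and looked at for 33 genes. Each array and fusion was 1 line, so the line and the array cannot be told apart.

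Single control libraries of genes near FUT7 stood far from the other 3 of their fusion by Dixon's test. ABCA2 was at 43.5 CPM in dCas9-VPR nontarget Sp replicate 1, DPP7 at 3.04 CPM in the same library, CLIC3 at 1.52 CPM in dCas9-VPR nontarget Sp replicate 2 and PTGDS at 2.95 CPM in dCas9-KRAB LTR5HS Sa replicate 2. These were 4 of 73 genes and groups looked at, and chance flags about 1 in 20.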

How the results depend on the processing

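The CRISPRa contrast was used to choose the family, so its count of fucosyltransferases called carries no weight here either. That count was 3. It was 1 when at least 10 counts were required in every library, a filter under which FUT6 and FUT7 were not tested. Under the other alternatives it was between 2 and 4. The FUT7 log2 fold change with CRISPRa was 8.99 with LTR5HS Sa alone as control, 11.95 with nontarget Sp alone, 10.49 with all 12 libraries in one fit, and 9.37 to 11.30 with 1 library left out. Leaving out 1 library gave 0 to 1 members called between the dCas9-VPR control arrays, 2 to 4 between the fusions, 4 to 12 genes near FUT7, and 10 to 19 list genes with CRISPRa and 1 to 2 with CRISPRi. Leaving out a recruitment library, or a control library when the control arrays are compared, leaves 1 library in that arm. That library is then assumed to vary like the others. With nontarget Sp alone as control, 7 list genes were called with CRISPRi, against 2 with both controls.

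With the replicate number as a block, the members called were 3 with CRISPRa, 0 with CRISPRi, 1 and 0 between the control arrays and 4 between the fusions. In the fit between the fusions the block was shared by both fusions, although the numbers were taken to pair libraries only within a fusion. The block gave 19 and 2 list genes and 14 and 0 genes near FUT7. Among the genes named, the block changed no call but that of ABCA2.

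Values near 0 changed sign. With LTR5HS Sa alone as control the CRISPRi log2 fold change was -0.23 for FUT4 and -0.029 for FUT5, and with nontarget Sp alone -0.067 for FUT8, which was -0.00082 with no filter. The fusion difference was 0.013 for FUT3 by DESeq2 and 0.0089 for FUT5 with at least 10 counts. With CRISPRa, ENTPD2 was at -0.38 and SAPCD2 at -0.24 with nontarget Sp alone, and SAPCD2 at -0.0024 by DESeq2 and -0.0057 with no filter. With 1 library left out, CRISPRi values ran from -1.31 to 0.25 for FUT3, -0.11 to 0.10 for FUT4, -0.068 to 0.22 for FUT5 and -0.036 to 0.051 for FUT8. The control arrays differed by -0.14 to 0.57 for FUT5 and -1.41 to 0.21 for FUT6 with dCas9-VPR, and with dCas9-KRAB by -0.030 to 0.37 for FUT1, -0.35 to 0.20 for FUT2, -0.18 to 0.69 for FUT3 and -0.20 to 0.53 for FUT5. The fusion difference ran from -0.17 to 0.20 for FUT3 and -0.19 to 0.10 for FUT5, and the CRISPRa value from -0.079 to 0.45 for ENTPD2 and -0.30 to 0.26 for SAPCD2. The cause of these changes was not tested. Depth limits FUT6, FUT7 and FUT9, whose counts in most libraries were near the floor of 3.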
